A study of Rattus norvegicus with 12 samples.

Results

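The genes described are the insulin-like growth factors Igf1 and Igf2, their receptors Igf1r and Igf2r, and the binding protein genes Igfbp2, Igfbp3, Igfbp4, Igfbp5 and Igfbp6. A probe set was taken when the platform annotation gave it exactly 1 gene symbol and that symbol was among these 9 genes. This rule gave 22 probe sets of 31042 tested, and 9 genes of 14217 with a symbol. Igfbp5 had 5 probe sets, Igf2 4, Igf1 3, and Igf1r, Igf2r, Igfbp3 and Igfbp6 2 each. Igfbp2 and Igfbp4 had 1 each. The family was selected on the value of Igf1 in 7B12, which was known to be lower than in the controls. Every value of these genes in which 7B12 is set against another group is therefore given as a description, and nothing is read from it as a test.

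RNA came from organotypic hippocampal slice cultures of Wistar rats at postnatal day 7. Such cultures are slices of living tissue kept on a membrane, and all of them were harvested at 26 days in vitro. The 4 groups had 3 arrays each, and each array was hybridised with RNA pooled from 24 cultures. The 7B12 cultures received a mouse monoclonal antibody to amino acids 763 to 820 of rat Nogo-A, a membrane protein known for limiting neurite growth. The 11C7 cultures received a mouse monoclonal antibody to amino acids 623 to 640 of the same protein. The IgG cultures received a control monoclonal antibody to wheat auxin. Treatment with each of the 3 antibodies began on day 21 in vitro and lasted 5 days, at a concentration of 3 µg/ml in the medium. The NT cultures were not treated. NT and IgG together are called the controls, with 6 arrays. The arrays of a group are numbered 1 to 3.

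IGF-1 and IGF-2 are small secreted proteins related to insulin. IGF-1 acts mainly through the IGF-1 receptor, a tyrosine kinase, and in brain it is known as a survival and growth factor made by some neurons and by microglia. The IGF-2 receptor, which is also the cation-independent mannose 6-phosphate receptor, carries IGF-2 and lysosomal enzymes to lysosomes. The IGF binding proteins hold IGFs outside the cell and limit or prolong their action.

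Values are log2 of a deposited ratio less the median of the array. A ratio carries no level, so one gene's abundance cannot be set against another's. The same holds for whether the marker genes of hippocampal cells are present. In bulk tissue, fewer cells of a type and less RNA per cell cannot be told apart. Arrays of the same number resembled each other across groups, and general neuron markers (9 of 9 on the array) averaged -1.69 to -1.07 in the arrays numbered 1 and 0.44 to 1.22 in those numbered 2. The number was therefore also fitted as a block. The library labelled 11C7 1 stood apart from 11C7 2 and 3. Its value of Saa3, an acute-phase gene, was 6.62, against 0.02 and 0.61 in 11C7 2 and 3, while the 7B12 arrays stood at 6.52, 4.40 and 7.17 and the controls at -2.17 to 0.06. Differences of the members in 11C7 are given with and without 11C7 1.

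Igf1 was lower in 7B12 in all 3 of its probe sets. In probe set 1370333_a_at its values were -1.09, -1.21 and -1.26 in the 7B12 arrays and -0.81, 0.64 and 0.28 in the 11C7 arrays. In the controls they were 0.28, -0.08 and 0.64 for IgG and 0.22, -0.15 and 0.61 for NT. The 7B12 arrays lay together below the lowest control, and 11C7 1 was the only other array below all controls.

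In probe set 1382599_at the values of Igf1 were -1.18, -1.67 and -1.53 in 7B12 and -0.93, 0.46 and 0.15 in 11C7. They were 0.49, -0.05 and 0.49 in IgG and 0.55, -0.31 and 0.68 in NT. Probe set 1388469_at of Igf1 gave -1.17, -1.19 and -1.07 in 7B12 and -1.15, 0.20 and 0.67 in 11C7. It gave 0.06, 0.25 and 0.90 in IgG and 0.04, 0.05 and 0.97 in NT. In each of them the 7B12 arrays and 11C7 1 were low, and the remaining arrays were mixed. Over all 12 arrays the probe sets of Igf1 correlated with each other at Pearson r of 0.90 to 0.98, a description over arrays that share groups and numbers.

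**Figure D1:**
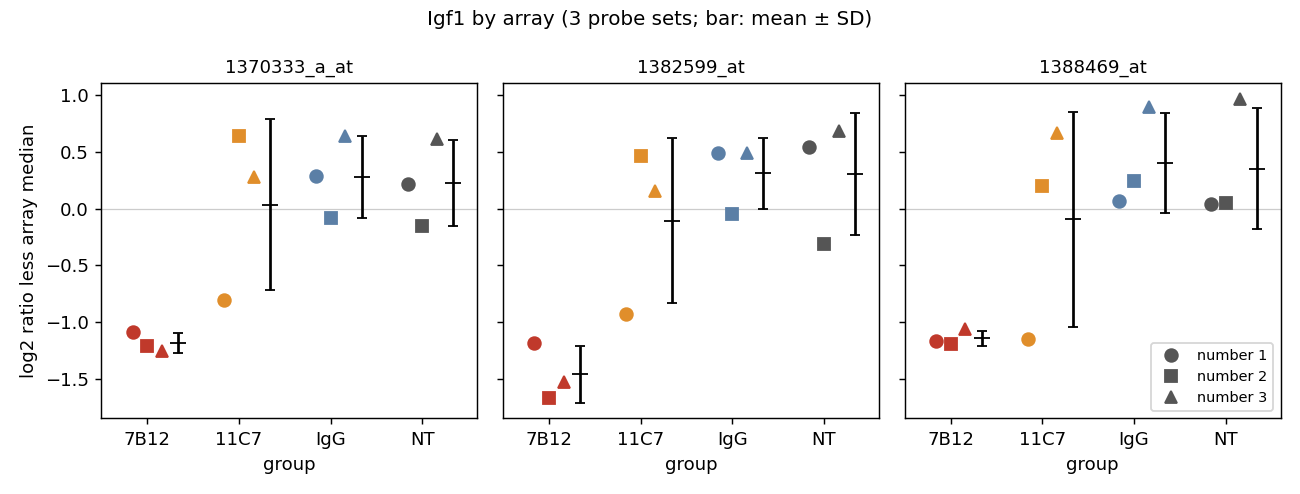
Igf1 in each of 12 arrays, as log2 ratio less the array median (y axis), for its 3 probe sets (panels) in the groups 7B12, 11C7, IgG and NT (x axis). Symbols give the replicate number, and the bar beside each group is the mean ± SD of 3 arrays. The 7B12 arrays lie at -1.67 to -1.07 in every panel, and 11C7 1 at -1.15 to -0.81, below all control arrays.

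Averaged over its probe sets, Igf1 stood at -1.26 ± 0.11 in 7B12 (SD, n = 3) and at -0.06 ± 0.79 in 11C7 (SD, n = 3). It stood at 0.33 ± 0.32 in IgG and 0.29 ± 0.45 in NT (SD, n = 3 each). The difference of 7B12 from the controls was -1.58, or 2.98-fold lower. By probe set the log2 difference was -1.44 ± 0.32 (SE) for 1370333_a_at, -1.77 ± 0.34 for 1382599_at and -1.52 ± 0.39 for 1388469_at of Igf1. In order of their means the groups ran IgG, NT, 11C7 and 7B12. IgG and NT differed by less than their spread, and 11C7 overlapped with both controls. In 1388469_at 11C7 1 lay among the 7B12 arrays.

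Within each number Igf1 in 7B12 also lay below the controls of the same number. The log2 difference, averaged over probe sets, was -1.42 for number 1, -1.31 for number 2 and -2.00 for number 3. For 11C7 these differences were -1.24, 0.48 and -0.35, so they went both ways. Igf1 in 11C7 1 alone was 2.42-fold below the control mean, and without it 11C7 stood 0.09 above the controls on the log2 scale.

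The comparisons of 7B12 and of 11C7 use the same control arrays. In limma the difference of 11C7 from the controls was -0.22 ± 0.32, -0.41 ± 0.34 and -0.47 ± 0.39 (SE) in the 3 Igf1 probe sets, with an adjusted p of 1.00 in each (0.916, 0.864 and 0.851 with the number as a block). Without 11C7 1 these log2 differences of Igf1 were 0.20, -0.000048 and 0.06. The control antibody left Igf1 close to NT: IgG minus NT was 0.05 ± 0.37, 0.00 ± 0.39 and 0.05 ± 0.46 (SE), adjusted p = 1.00 in each by limma. 7B12 minus 11C7 was -1.22 ± 0.37, -1.36 ± 0.39 and -1.05 ± 0.46 (SE).

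Markers of other cells were read in the same arrays. Border macrophage and phagocyte markers (8 of 8 measured) averaged 0.29 to 0.88 in 7B12, -0.72 to 0.26 in 11C7 with the highest value in 11C7 1, and -0.92 to 0.16 in the controls. Of their 10 probe sets, 7 had a difference above 0 in 7B12 and 3 below. At an unadjusted p under 0.05, 3 were higher, beside 3.09% of all probe sets, and 0 passed adjustment. They were led by the lysozyme gene Lyz2 (1.40 ± 0.31, SE, adjusted p = 0.543 by limma) and by Ms4a7 (2.84 ± 0.64, adjusted p = 0.543). Microglial markers (11 of 13 measured) averaged -0.12 to 0.52 in 7B12, -0.26 to 0.49 in 11C7 and -0.51 to 0.76 in the controls, so the groups overlapped. Their median difference in 7B12 was 0.02 over 14 probe sets, with 8 above 0 and 6 below, beside 0.00 over all probe sets. Of the microglial probe sets 1 was higher at an unadjusted p under 0.05, that of Tmem119 (1.07 ± 0.37, SE, adjusted p = 0.821 by limma), beside 3.09% of all probe sets, and 0 were lower, beside 2.12%. The next was Itgam, an integrin gene of myeloid cells, at 0.94 ± 0.43 (SE, adjusted p = 0.965 by limma). Gpr34 leaned the other way, at -0.74 to 0.07 in 7B12 and -0.57 to 0.63 in the controls. With the number as a block 3 microglial probe sets were higher and 4 lower at that limit, beside 5.16% and 4.29% of all, and 0 passed adjustment. Choroid plexus and ependymal markers (5 of 6 measured) were at -0.18, 0.53 and -0.39 in 7B12 and at -0.22, -0.56 and -1.32 in 11C7, against -1.28 to -0.50 in the controls. The 7B12 arrays and 11C7 1 were thus above all controls. Their median difference in 7B12 was 1.19 over 6 probe sets, with 5 above 0 and 1 below. At an unadjusted p under 0.05, 1 was higher, beside 3.09% of all probe sets, and 0 passed adjustment. It was a probe set of Otx2, at -4.90 to -1.74 in the controls and -2.49 to -0.55 in 7B12. Kl ranged from -4.49 to 0.04 in the controls and from -0.76 to 0.05 in 7B12. Foxj1 overlapped, at -0.24 to 1.26 in the controls and -0.24 to 0.73 in 7B12. Otx2 held more than 1 of the 6 probe sets. At the low ratios that Otx2 and Kl reached in the controls, dim genes cannot be told from absent ones. Whether 7B12 held more choroid plexus or ependymal cells was not tested. Blood cell markers (6 of 8 measured) averaged -0.55 to -0.31 in 7B12, -0.88 to -0.33 in 11C7 and -1.74 to -0.42 in the controls. Median differences in 7B12 were -0.15 for oligodendrocyte and myelin markers and -0.34 for endothelial markers. They were -0.04 for astrocyte, 0.08 for neuron, 0.16 for interneuron, 0.31 for meningeal and fibroblast and 0.32 for mural markers. In these lists 0 probe sets passed adjustment. The part of all these cells in the Igf1 values was not tested.

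The genes whose probe set was most like Igf1 were sought over the 12 arrays among 17301 probe sets with 1 symbol and a median ratio of 1. The measure was Pearson r with the mean of the Igf1 probe sets, given as a description, since the arrays share groups and numbers. The highest was Ltc4s, the leukotriene C4 synthase gene (r = 0.97), followed by Tnfsf4, which encodes OX40 ligand (0.94), the tetraspanin gene Tspan8 (0.94), the receptor phosphatase gene Ptprz1 (0.93) and the chloride transporter gene Clcn4 (0.93). The Ras exchange factor gene Rasgrp3 (0.92), Drc3 (0.91) and the semaphorin receptor gene Nrp1 (0.91) came next. In Ltc4s the values were -1.68, -2.19 and -1.76 in 7B12 and -1.80, 0.23 and 0.62 in 11C7. They were 0.51, -0.60 and 0.69 in IgG and 0.54, -0.14 and 0.78 in NT. As in Igf1, 11C7 1 lay with the 7B12 arrays. After each number was centred on its own mean, r was 0.92 to 0.98 in these 8 genes. They were picked for a high r in the same arrays, so this is no further test.

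The promoter window of Igf1 is shown because the 7B12 arrays lay below all controls in all Igf1 probe sets. That of Igf2r is shown because both Igf2r probe sets differed among the replicate numbers, as their values show after those of Igfbp4. Sequences are from RefSeq, build GRCr8, and run 5′ to 3′ from 250 bases before to 50 bases after a start site. The Igf1 window is chr7:24172282-24172581 on the plus strand and the Igf2r window chr1:50526628-50526927 on the plus strand. Capitals mark CG dinucleotides.
Igf1: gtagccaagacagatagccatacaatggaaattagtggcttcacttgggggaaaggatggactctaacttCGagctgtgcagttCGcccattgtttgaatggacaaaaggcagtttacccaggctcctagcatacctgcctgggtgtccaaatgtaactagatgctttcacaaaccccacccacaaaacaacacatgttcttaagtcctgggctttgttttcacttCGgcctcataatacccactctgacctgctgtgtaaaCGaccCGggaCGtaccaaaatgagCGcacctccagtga
Igf2r: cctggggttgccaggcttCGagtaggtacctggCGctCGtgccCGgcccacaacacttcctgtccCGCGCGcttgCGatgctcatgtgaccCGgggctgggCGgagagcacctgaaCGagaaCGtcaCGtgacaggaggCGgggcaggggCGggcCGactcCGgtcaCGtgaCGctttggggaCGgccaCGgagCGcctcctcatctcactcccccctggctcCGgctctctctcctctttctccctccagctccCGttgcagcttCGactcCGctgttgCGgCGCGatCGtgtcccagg

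The windows differ in base composition. That of Igf1 held 7 CG dinucleotides, the median over all 33469 rat windows, and that of Igf2r held 30, more than 89.7% of them. All 9 genes had a window, and Igf2 had 2. The receptor gene Igf1r held the most, 50, followed by Igfbp3 with 36. On both strands 5 motifs were searched, none of which contains another. The TATA box, TATAAA, was found in 14.2% of all windows and among the members in that of Igfbp4 only. The E-box was searched as CACGTG, found in 6.42% of all windows. The Igf2r window held CACGTG at 2 places, starting at its bases 126 and 166, and the windows of Igf1r and Igfbp2 also held it. A forkhead site, GTAAACA, was in 3.78% of all windows and in that of Igfbp6. The CCAAT box, with those letters, was in 37.5% of all windows and in no member window. The Stat site was searched as TTCNNNGAA, which 8.87% of all windows held and no member window did. The Igf1 window held none of the 5, which says nothing about the factors that bind it.

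Igf2, a growth factor gene of fetal and meningeal tissue, gave no shared picture in its 4 probe sets. Only 1367571_a_at had a 12-array median ratio of 1. Its Igf2 values were 0.08, -1.49 and 0.38 in 7B12 and -0.15, -0.24 and -0.13 in 11C7, against 0.67, 0.09 and 0.21 in IgG and 0.50, -0.41 and 0.13 in NT. The low value in 7B12 2 stood alone. The difference from the controls was -0.54 ± 0.39 (SE) for 7B12 and -0.37 ± 0.39 for 11C7 (adjusted p = 1.00 by limma), or -0.39 without 11C7 1. The other 3 probe sets of Igf2 had median ratios of 0.41, 0.15 and 0.20. Their differences from the controls were 0.44 to 1.26 for 7B12 and -0.94 to 0.43 for 11C7, with SEs of 0.79 to 0.85. Without 11C7 1 those of 11C7 were -0.36 to 1.44. Over the 12 arrays the probe sets of Igf2 correlated with each other at Pearson r of -0.62 to 0.53. The array annotation names a single gene for all 4, and which of them follows Igf2 is not settled here.

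**Figure D2:**
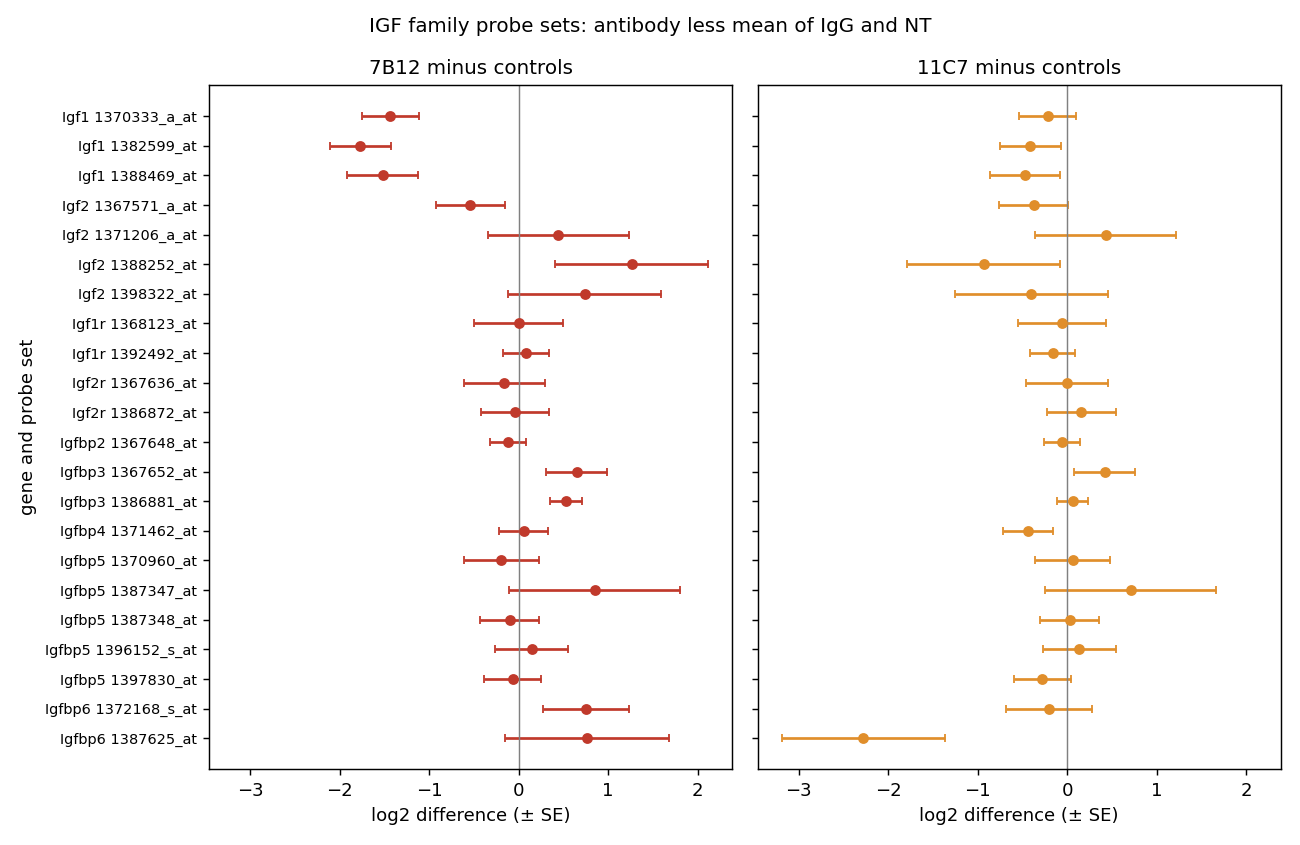
Log2 difference from the mean of IgG and NT (x axis, bars ± SE) for the 22 probe sets of the IGF family (y axis), in 7B12 (left) and 11C7 (right), which share their controls. The 3 Igf1 probe sets lie at -1.77 to -1.44 in 7B12 and at -0.47 to -0.22 in 11C7.

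In 7B12 the remaining 19 probe sets had differences of -0.54 to 1.26 from the controls, with a median of 0.08, beside a median of 0.00 over all 31042. All 3 arrays of 7B12 lay below all 6 controls in 3 of the 22 probe sets, which were those of Igf1, beside 1.11% of all probe sets. They lay above all controls in 1, a probe set of Igfbp3, beside 1.99%. The choice of Igf1 fixed the first of these counts, and nothing is read from either. In 11C7 no probe set of the family lay wholly outside the controls, beside 0.767% of all higher and 0.902% lower.

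Igfbp3 encodes the main IGF carrier of blood plasma. In its probe set 1386881_at the values of Igfbp3 were 0.32, 0.94 and 0.47 in 7B12 and -0.01, 0.29 and 0.04 in 11C7. They were 0.01, 0.07 and -0.01 in IgG and -0.05, 0.31 and -0.06 in NT. The 7B12 arrays were all above the controls, though 7B12 1 was close to NT 2. In probe set 1367652_at Igfbp3 had 0.41, 0.57 and 0.03 in 7B12 and 0.23, 0.73 and -0.64 in 11C7, against 0.07, -0.74 and -0.79 in IgG and 0.29, -0.10 and -0.60 in NT, so the groups overlapped. The log2 difference of Igfbp3 from the controls was 0.53 ± 0.18 (SE, 1.44-fold) and 0.65 ± 0.34 (1.57-fold) in 7B12. Against the controls of the same number, 7B12 was higher in both probe sets in all 3 numbers, by 0.22 to 0.99. In 11C7 the difference was 0.06 ± 0.18 and 0.42 ± 0.34 (SE, adjusted p = 1.00 in both by limma), and without 11C7 1 it was 0.12 and 0.35.

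Igfbp6 encodes a binding protein with a preference for IGF-2. In its probe set 1387625_at the values of Igfbp6 were 0.55, 2.83 and -0.09 in 7B12 and -1.36, -0.11 and -4.36 in 11C7. They were -0.70, 0.22 and -0.30 in IgG and 0.21, 1.80 and 0.75 in NT. The 11C7 3 value was far below the others, while its value in the other probe set, 1372168_s_at, was -0.23, within the range of the remaining arrays. There Igfbp6 had 0.45, 1.36 and 0.02 in 7B12 and -0.09, -0.70 and -0.23 in 11C7, against -1.96, 0.25 and -0.36 in IgG and 0.18, 0.96 and 0.09 in NT. 11C7 minus controls was -2.28 ± 0.92 (SE) in 1387625_at (adjusted p = 1.00 by limma, 0.780 with the number as a block) and -0.20 ± 0.48 in 1372168_s_at (adjusted p = 1.00). Without 11C7 3 the Igfbp6 differences were -1.07 and -0.26, and without 11C7 1 they were -2.57 and -0.32. IgG minus NT was -1.18 ± 1.06 and -1.10 ± 0.55 (SE, adjusted p = 1.00 in both). Igfbp6 was highest in number 2 within 7B12, IgG and NT in both probe sets. Meningeal and fibroblast markers (12 of 12 on the array) were at 0.66 in 7B12 2 and 0.59 in NT 2, the highest of all arrays, but at -0.43 in IgG 2, and their part in the Igfbp6 values was not tested.

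**Figure D3:**
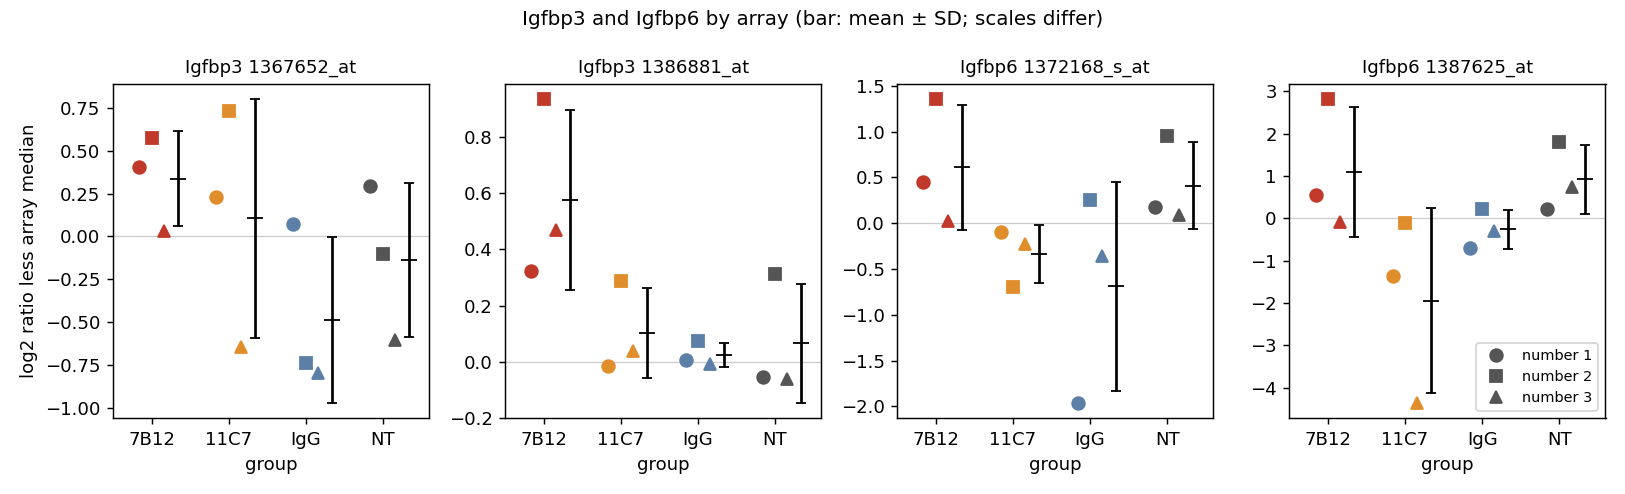
Igfbp3 and Igfbp6 in each array, as log2 ratio less the array median (y axes of differing scale), for 2 probe sets each in 7B12, 11C7, IgG and NT (x axis). Symbols give the replicate number and bars the mean ± SD of 3 arrays. Igfbp3 in 7B12 lies at 0.32 to 0.94 in 1386881_at, and 1 Igfbp6 probe set has a single value at -4.36 in 11C7 3.

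Igfbp4, whose protein is cut by pappalysin to free IGF, had values of 0.10, 0.27 and -0.24 in 7B12 and -0.71, 0.05 and -0.70 in 11C7. It had 0.33, -0.56 and 0.01 in IgG and -0.35, 0.39 and 0.11 in NT. Igfbp4 was low in 11C7 1 and 3, but not in 11C7 2. 11C7 minus controls was -0.44 ± 0.27 (SE, adjusted p = 1.00 by limma), or -0.31 without 11C7 1, and 7B12 minus controls was 0.05 ± 0.27.

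By limma, 0 of the 22 probe sets passed an adjusted p of 0.05 for 11C7 against the controls, beside 0% of all probe sets. At an unadjusted p under 0.05 there was 1 of 22, that of Igfbp6, beside 3.22% of all. For IgG against NT 0 of 22 passed, and 0 had an unadjusted p under 0.05, beside 2.32% of all. With the number as a block the adjusted counts were again 0 in both comparisons, and for 11C7 also without 11C7 1. By the rule of the study's design text, an analysis of variance over the groups with a limit of 1.2-fold, 4 of 22 passed before adjustment and 0 after it, beside 2.99% and 0% of all. The 4 were the probe sets of Igf1 and 1 of Igfbp3, and nothing is read from this count, since Igf1 was chosen on its 7B12 values.

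Replicate number passed limma's F test, with group as a term, in 5 of 22 probe sets of the family and in 17.9% of all probe sets, so the share was near the background and is not read as a result about the family. The receptor genes and Igfbp2 hold 4 of the 5. Igf1r in probe set 1368123_at had 1.12, 0.96, 1.27 and 1.49 in the arrays numbered 1 of 7B12, 11C7, IgG and NT. It had 0.20, 0.28, -0.20 and -0.08 in those numbered 2 and -0.14, -0.22, -0.08 and -0.03 in those numbered 3. All 4 arrays of number 1 were thus above the other 8. The second Igf1r probe set, 1392492_at, averaged 0.45 ± 0.12, 0.06 ± 0.24 and -0.15 ± 0.21 in numbers 1, 2 and 3 (SD, n = 4 each) and did not pass (adjusted p = 0.0700 by limma). Number accounted for 92.7% and 67.6% of the sum of squares of the 2 Igf1r probe sets, and group for 0.713% and 9.01%.

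Igf2r in probe set 1367636_at had 0.33, 0.54, 0.69 and 0.80 in number 1 for 7B12, 11C7, IgG and NT. It had 0.03, 0.13, 0.23 and -0.26 in number 2 and -0.84, -0.69, -0.61 and -0.85 in number 3. The numbers did not overlap. Probe set 1386872_at of Igf2r averaged 0.52 ± 0.16, 0.03 ± 0.24 and -0.55 ± 0.22 (SD, n = 4 each), and its correlation with 1367636_at over the 12 arrays was 0.91. Igfbp2, a binding protein gene of brain, averaged 0.25 ± 0.08, 0.05 ± 0.14 and -0.24 ± 0.06 (SD, n = 4 each), a narrower span with number 1 again highest and number 3 lowest.

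**Figure D4:**
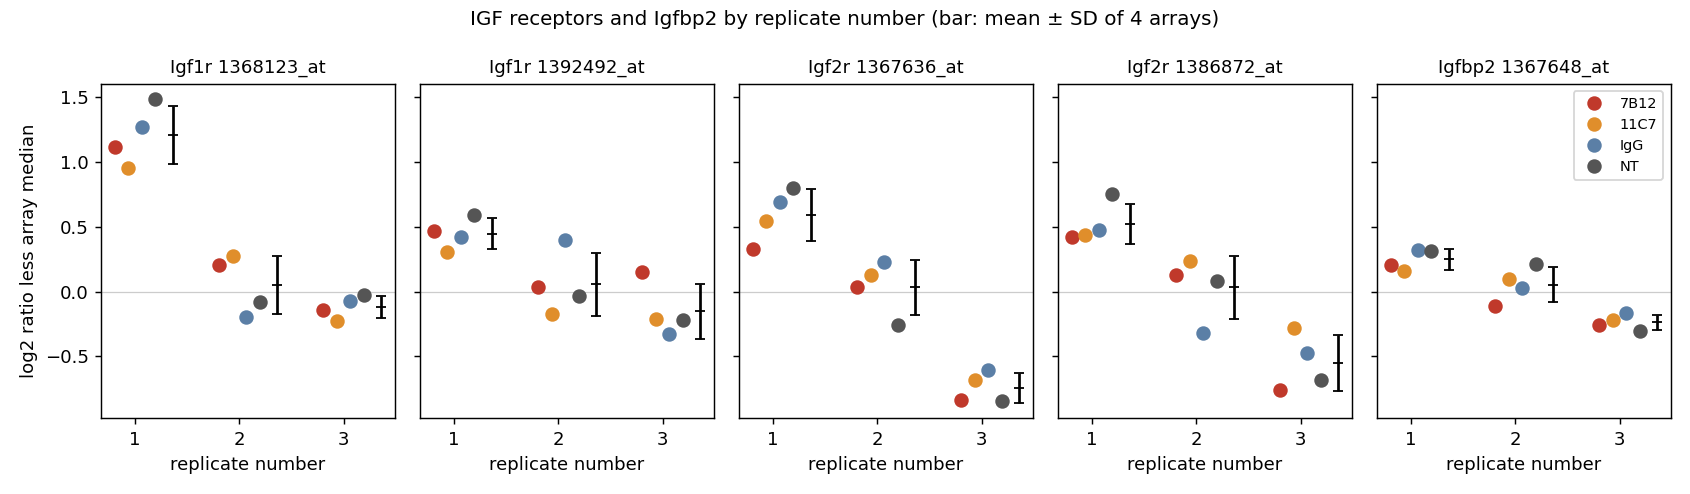
Igf1r, Igf2r and Igfbp2 in each array, as log2 ratio less the array median (y axis), by replicate number (x axis) for 5 probe sets. Colours give the group and bars the mean ± SD of 4 arrays. Arrays of number 1 lie above all arrays of number 3 in each panel, whatever the group.

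The 5 probe sets that passed limma's F test over numbers were 1368123_at of Igf1r (adjusted p = 0.00592), 1367636_at and 1386872_at of Igf2r (0.00465 and 0.0135), Igfbp2 (0.0380) and 1370960_at of Igfbp5 (0.0435). At an unadjusted p under 0.05 there were 13 of 22, beside 35.2% of all. The call of Igf1r and that of Igf2r in 1367636_at held without any single array. That of Igf2r in 1386872_at ended without NT 1 or IgG 1 (highest adjusted p = 0.0529). Igfbp2 and Igfbp5 lost theirs in 11 of 12 such fits, with adjusted p up to 0.118 and 0.151. Number 1 lay wholly above number 3 in 7 of 22 probe sets, beside 15% of all, and wholly below in 0, beside 12.7%. Markers of neurons also passed for the number in 11 of 14 probe sets, of interneurons in 10 of 11, of oligodendrocytes and myelin in 13 of 15, of microglia in 11 of 14, of mural cells in 5 of 10 and of endothelium in 3 of 9. Those of border macrophages and phagocytes passed in 2 of 10, of astrocytes in 2 of 15, of meninges in 0 of 15, of choroid plexus in 0 of 6 and of blood in 0 of 8. Their part in the receptor values was not tested.

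With the number as a block the receptors could be compared between groups more closely. 11C7 minus controls was -0.06 (95% interval -0.44 to 0.32) and -0.16 (-0.53 to 0.20) for Igf1r in 1368123_at and 1392492_at. It was -0.00 (-0.33 to 0.32) and 0.16 (-0.22 to 0.53) for Igf2r in 1367636_at and 1386872_at, and -0.06 (-0.30 to 0.18) for Igfbp2. 7B12 minus controls was -0.00 and 0.08 for Igf1r, -0.16 and -0.04 for Igf2r, and -0.12 for Igfbp2. IgG minus NT was -0.13 (-0.57 to 0.32) and 0.05 (-0.37 to 0.47) for Igf1r. Without 11C7 1 the blocked differences of 11C7 were 0.08 and -0.16 for Igf1r, 0.05 and 0.30 for Igf2r and -0.00 for Igfbp2. Differences within these bounds cannot be resolved with 3 arrays a group.

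Igfbp5, which encodes a binding protein that also attaches to extracellular matrix, had 5 probe sets. In 1370960_at Igfbp5 had 0.77, 0.57, 0.40 and 0.96 in number 1 of 7B12, 11C7, IgG and NT. It had -0.61, -0.15, 0.09 and -0.79 in number 2 and -0.48, 0.02, -0.20 and 0.07 in number 3. Averaged over its probe sets Igfbp5 was at 0.38 ± 0.16, -0.70 ± 0.47 and -0.00 ± 0.27 in numbers 1, 2 and 3 (SD, n = 4 each), so that number 2 was lowest. In 1387347_at it was at -3.49 in NT 2 and -2.81 in IgG 2, against 0.02 in 7B12 2 and -0.97 in 11C7 2. The probe sets of Igfbp5 correlated with each other at Pearson r of 0.51 to 0.95 over the 12 arrays. The differences of 7B12 from the controls were -0.20 to 0.85 over the 5 Igfbp5 probe sets, and those of 11C7 -0.28 to 0.71 (adjusted p = 1.00 in each by limma), or -0.56 to 0.46 without 11C7 1.

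Other genes of the pathway were taken from 3 lists. Of 28 insulin and IGF signalling genes 25 were on the array, with 53 probe sets and a median difference of -0.04 in 7B12 and 0.02 in 11C7. None passed adjustment in either. At an unadjusted p under 0.05 there were 1 higher and 1 lower in 7B12, beside 3.09% and 2.12% of all probe sets. In 11C7 there were 0 higher and 1 lower, beside 0.989% and 2.23% of all. The kinase gene Akt2, downstream of the receptor, was at -0.38 ± 0.14 in 7B12 and -0.38 ± 0.14 in 11C7 (SE, adjusted p = 0.867 and 1.00 by limma), and the adaptor gene Grb10 at 1.40 ± 0.55 in 7B12 (adjusted p = 0.890). The kinase gene Akt1 was at 0.34 ± 0.15 in 11C7 (SE, adjusted p = 1.00 by limma). In IgG minus NT Grb10 was at -1.59 ± 0.63 (SE, adjusted p = 1.00 by limma). The Grb10 values were 0.38, 0.87 and 0.74 in 7B12 and -0.44, 0.09 and 0.53 in NT, which overlapped. They were -1.59, 0.06 and -3.08 in IgG, so the 7B12 difference leaned on the low IgG 1 and IgG 3.

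Of 12 further carriers, binding protein proteases and their inhibitors, 10 were on the array with 13 probe sets, and 0 had an unadjusted p under 0.05 in 7B12 or in 11C7, beside 5.2% and 3.22% of all. With the number as a block there were 1 higher and 1 lower in 7B12, beside 5.16% and 4.29% of all, and 0 passed adjustment. The stanniocalcin gene Stc1, whose product inhibits pappalysins, was at 1.91 ± 0.88 in 7B12 in 1 probe set (SE, adjusted p = 0.976 by limma), and the protease gene Htra1 at -0.28 ± 0.15 (adjusted p = 1.00). In that probe set Stc1 had -0.11, -1.52 and 1.24 in 7B12 and -2.95 to 0.29 in the controls, so they overlapped. Another Stc1 probe set had -0.92 to 0.18 in 7B12, within the -2.45 to 0.60 of the controls. Of 9 genes of IGF2 mRNA-binding proteins and the growth hormone axis all 9 were on the array, with 13 probe sets, of which 0 had an unadjusted p under 0.05 in either, beside the same shares of all. The growth hormone receptor gene Ghr was at -0.48 ± 0.24 in 7B12 and the kinase gene Jak2 at 0.28 ± 0.19 (SE, adjusted p = 1.00 in both by limma).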

How the data were processed

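Each of 12 Affymetrix rat arrays measured 1 RNA pool as biotin-labelled cRNA, per the labels' protocols. The software named is GCOS 1.4 with MAS5, per the submitters' processing notes. The deposited values are ratios, which the design text relates to the control median. Within 0.0015, 76.4% of probe sets had a 12-array median of 1 and 11.2% a control median of 1, so the ratio looks relative to all arrays. A constant divisor leaves log2 differences between groups as they are.

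Of 31099 probe sets, 57 spike-in controls were left out. The array annotation gave 20826 probe sets 1 symbol, 436 several and 9780 none here. All 22 member probe sets matched the RefSeq table by Entrez identifier, with the same symbol. Values were log2 of the ratio less the array median. Arrays have no sequencing depth, and 3 arrays a group limit the precision.

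Groups were fitted with lmFit and eBayes in limma 3.58.1 (R 4.3.3), 1 mean per group, two-sided, with p-values adjusted by Benjamini-Hochberg across the whole table of 31042 probe sets at a threshold of 0.05. The fit was first tested on simulated data, with 50 probe sets raised in 7B12 at each size of change. It recovered 88% of them at 8-fold, 58% at 4-fold, 22% at 2-fold and 0% at 1.5-fold, with 11 false calls. Whether these shares hold for the arrays of this study was not tested. In 7B12 minus controls 0 of 31042 probe sets passed, with a smallest adjusted p of 0.438 by limma. Saa3 did not pass either, at 6.52, 4.40 and 7.17 in 7B12 and -2.17 to 0.06 in the controls. A count of 0 passing adjustment therefore does not exclude changes, whether small or large. Same-numbered arrays of different groups correlated after removal of group means in each of 18 pairs (Pearson r 0.19 to 0.67), and the numbers come from the sample titles, so they were taken to pair the arrays. Replicates are separate cultures from different animals, per the design text.

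The members and lists were chosen with earlier results of these data known. Named are all member probe sets, Saa3, genes of lowest p in a comparison from some of the lists, and the 8 genes most like Igf1. Alternatives were centring, quantile normalization, the block, array weights, dim probe sets left out, IgG alone as control and each array left out.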

Additional observations from a re-analysis of the deposited data

How the results depend on the processing

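Counts of member probe sets past an adjusted p of 0.05 were 0 in limma for 11C7 minus controls and IgG minus NT. They stayed 0 with values as deposited, quantile normalization, the replicate block, array weights, dim probe sets left out and, for 11C7, IgG alone as control, and when 1 array was left out. In the comparisons that hold 7B12 nothing is read from calls, since Igf1 was chosen on those values. There the count was also 0, except in 7B12 minus controls with the replicate block and, in alternatives chosen after seeing the data, without 11C7 replicate 1 or without all 11C7 arrays, where it was 2 and 1, all of Igf1. The mean Igf1 difference was -1.58 and ranged from -1.68 to -1.46 when 1 array was left out. For the replicate number 5 member probe sets passed, beside 17.9% of all, and 2 to 5 when 1 array was left out. By the rule of the design text 4 member probe sets passed, beside 2.99% of all, and 0 after adjustment, which is likewise not read. Over alternatives the log2 difference of a member moved by more than its spread within groups in 0 of 679 values in 7B12 minus controls, and in 1 of 679 each in 11C7 minus controls and IgG minus NT. Its sign changed in 52, 56 and 76 of these values. The limit set for a move was wide. The block with all arrays leaves each difference as it is, and leaving out 1 array moves a group mean by only part of that group's spread. The low counts of moves were therefore largely set in advance and are not read as stability. The ratios hold no signal over background, so dim genes cannot be told from absent ones.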
